A study of Homo sapiens with 6 samples.

Results

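Carbohydrate sulfotransferases of the CHST family were measured in KM12, an established cell line from a human colorectal tumour, with CDO1 overexpression or as mock control. The members were 9 genes (CHST2, CHST3, CHST6, CHST7, CHST11, CHST12, CHST13, CHST14 and CHST15), taken by symbol from the 27134 genes of the table, and all 9 had a mean normalised count of at least 1, the minimum for testing. RNA was sequenced from 3 libraries labelled as CDO1 overexpression and 3 labelled as control, all from the same line at the same range of passages. CDO1 encodes the cysteine dioxygenase that starts the oxidation of cysteine towards taurine and sulfate, and the mock cells are labelled only as control. Neither the vector nor the number of clones behind a group is stated. Nor is it stated that libraries stem from separate cultures, so their spread, and p-values resting on it, may be technical. The 9 genes were chosen by family with the log2 fold change between these groups, from these same libraries, already known. Their differences are therefore a description, a call marks only their place in the fit across all genes, and no p-value is printed for them.

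CHST enzymes sit in the Golgi membrane and move a sulfate group from the activated donor PAPS to a fixed position on a sugar of a growing chain. Chondroitin and dermatan sulfate are chains built on N-acetylgalactosamine, which can carry sulfate at carbon 4, at carbon 6 or at both, while keratan sulfate and the sulfated ligands of L-selectin carry it at carbon 6 of N-acetylglucosamine. The pattern of these sulfates sets which growth factors, chemokines and matrix proteins a chain can hold, and chondroitin sulfate is a regular part of the surface and matrix of colon tumours.

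Reads assigned to genes totalled 17516640 to 22198173 per library. CDO1 itself had 2333 to 2484 normalised counts (reads divided by a size factor per library) where overexpressed, and 68.1, 0 and 0 in mock replicates 1, 2 and 3. Mock replicate 1 thus held 76 CDO1 reads against its label, and the authors' deposited table gives this gene a log2 fold change of only 0.09 (adjusted p 0.42). The deposited fold changes are shrunk towards 0: a refit of the reads in DESeq2 gave CDO1 0.09 with a prior on fold changes and 6.71 without. Without that library the same number of members (7) was lower, CHST2 at -2.25, CHST6 at -1.59, CHST15 at -1.25, CHST11 at -1.26, CHST7 at -0.88, CHST3 at -0.96 and CHST12 at -0.44 in log2 fold change. Of 10 colon epithelium markers, 9 had a mean of at least 100, CDX1 was under 5, and 8 rose. Their summed level was 144609 to 153138 in mock and 194261 to 208063 with CDO1, and its part in the differences below was not tested. Of 11 markers of leukocytes, stroma, endothelium and liver, 6 were in the table and 5 (PTPRC, CD3E, COL1A2, COL3A1 and ALB) were not analysed here. Their summed level was 241 to 329 in mock and 172 to 220.1 with CDO1, COL1A1 going from 225 to 103, PDGFRB and VWF between 28.5 and 43.5, and LYZ, PECAM1 and CDH5 each under 10; their part in the differences was not tested either. The fall of the sum was not shared by all 6. In limma 1 was higher, 1 lower and 4 not called, with a median log2 fold change of 0.34. By adjusted p, edgeR and DESeq2 each called 0 higher and 1 lower.

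Transcripts of 7 of the 9 CHST genes fell in cells with CDO1, by 1.36-fold to 4.88-fold, and those of CHST13 and CHST14 did not pass the threshold. Both members that sulfate N-acetylglucosamine fell furthest, CHST2 to 20.5% and CHST6 to 33.5% of the mock mean. Among enzymes of chondroitin, CHST15, CHST11, CHST7 and CHST3 stood at 42.1%, 42.5%, 52.1% and 52.9% of mock, and CHST12 at 73.8%. The threshold was an adjusted p of 0.05 in limma on log2 of the normalised count plus 1, across 21775 genes. By that rule 24.0% of all genes tested differed, 12.7% lower with CDO1 and 11.3% higher, and nothing is read from the members' count against it. No member was higher by limma, edgeR or DESeq2, also at an unadjusted p of 0.05. The median log2 fold change (CDO1 minus mock) was -0.94 over the 9 members and -0.0035 over all genes tested, and 4 members were lower by a log2 fold change of at least 1, all of them past the threshold, as were 4.52% of all genes tested by both conditions. In bulk RNA, fewer cells with a transcript and less of it per cell cannot be told apart.

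**Figure D1:**
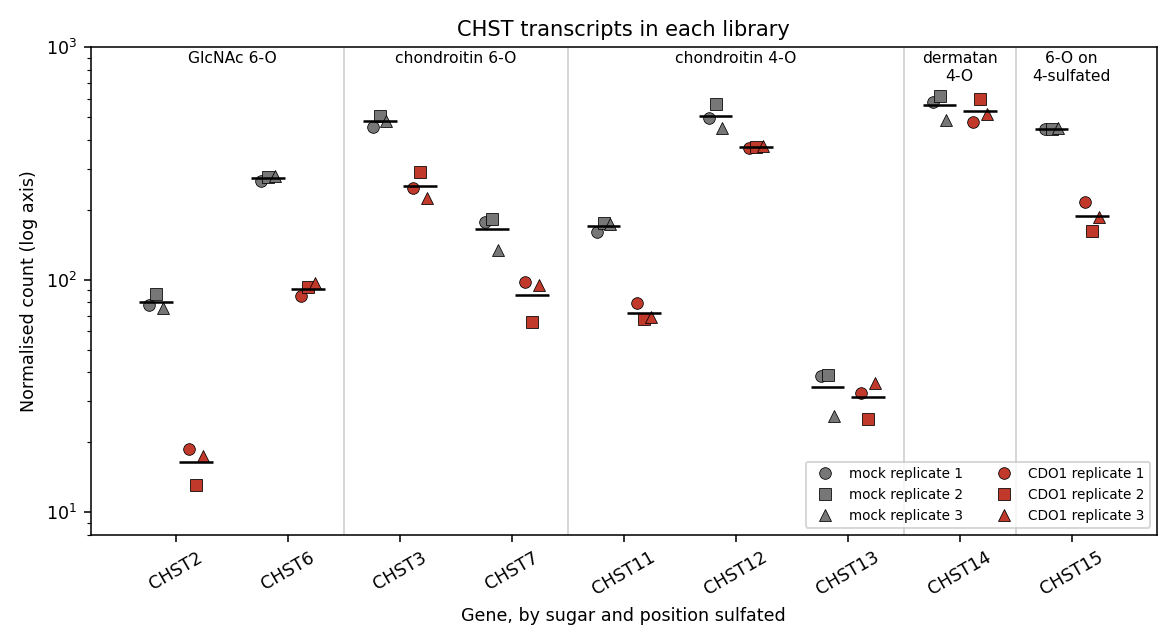
Normalised count (log axis) of the 9 CHST genes in each library, ordered by sugar and position sulfated; grey points are mock, red points CDO1, shapes are replicates and short lines are means. The groups are apart for 7 genes and mixed for CHST13 and CHST14.

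CHST2 (ENSG00000175040, GRCh38 chromosome 3, 143119331 to 143124014) makes the 6-sulfated N-acetylglucosamine of L-selectin ligands. It stood at 78.0, 86.8 and 75.8 normalised counts in mock replicates 1, 2 and 3 and at 18.7, 13.1 and 17.4 in the CDO1 replicates. The lowest mock library lay far above the highest CDO1 library, and the CDO1 values came from only 12 to 19 reads each. The means were 80.2 ± 5.83 and 16.4 ± 2.93 (SD, n = 3), a log2 fold change of -2.23 ± 0.21 (SE). The shrunken value of the authors' deposited table was -1.49, and the DESeq2 refit gave -1.48 with the prior and -2.28 without. A processed transcript of another gene on the same strand shares 4.69% of its exonic bases and was not analysed here.

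CHST6 (ENSG00000183196, chromosome 16, 75472052 to 75495445) sulfates keratan sulfate and is best known from the cornea, where its loss clouds the tissue. Its normalised count was 266, 276 and 279 in mock and 84.8, 93.1 and 97.4 with CDO1. The libraries of each group lay close together, with a coefficient of variation of 2.51% in mock and 6.95% with CDO1. The log2 fold change was -1.57 ± 0.11 (SE). Its neighbour and close paralog CHST5 was at 0 to 1.09 normalised counts in the 6 libraries, so few reads were given to it, although how reads shared by both genes were counted is not stated. An antisense gene covers 6.65% of the exonic bases of CHST6, and the strand setting of the counting is not stated.

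CHST3 (ENSG00000122863, chromosome 10, 71964365 to 72013564) is the main enzyme that puts sulfate on carbon 6 of the N-acetylgalactosamine of chondroitin. It measured 456, 505 and 482 in mock and 248, 290 and 226 with CDO1. All 3 CDO1 libraries were below the lowest mock library, and the log2 fold change was -0.92 ± 0.09 (SE). CHST7 (ENSG00000147119, chromosome X, 46573784 to 46598408), which carries out the same reaction, measured 177, 183 and 135 in mock and 97.6, 65.7 and 94.6 with CDO1. It spread more widely within groups (coefficients of variation 16.1% and 20.5%) than CHST3 (5.10% and 12.8%), and its groups were still apart. Its log2 fold change of -0.94 ± 0.16 (SE) differed from that of CHST3 by less than either SE.

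Sulfation at carbon 4 of chondroitin is shared by CHST11, CHST12 and CHST13, and these did not move alike. CHST11 (ENSG00000171310, chromosome 12, 104455295 to 104762014), the enzyme of cartilage chondroitin, stood at 161, 176 and 173 in mock and at 79.9, 67.9 and 68.9 with CDO1. Its log2 fold change was -1.23 ± 0.13 (SE), and its highest CDO1 library was far below its lowest mock library. CHST12 (ENSG00000136213, chromosome 7, 2403560 to 2448483) stood at 497, 572 and 448 in mock and at 369.8, 373 and 376 with CDO1. The CDO1 libraries were nearly equal (coefficient of variation 0.791%) and the mock libraries were not (12.3%), and the log2 fold change was -0.43 ± 0.09 (SE), the smallest of the 7 that fell. CHST13 (ENSG00000180767, chromosome 3, 126524283 to 126543291) was scarce, at 38.5, 39.0 and 26.0 in mock and 32.5, 25.2 and 35.8 with CDO1, from 23 to 43 reads per library. Its groups overlapped, and its log2 fold change of -0.13 ± 0.24 (SE) did not pass, with an SE well above that of CHST12. It turned to 0.051 with each library's GC trend removed and to 0.0073 without CDO1 replicate 2.

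CHST14 (ENSG00000169105, chromosome 15, 40470998 to 40474571) puts the same sulfate on dermatan, where the neighbouring sugar is iduronic acid. It measured 583, 615 and 489 in mock and 478, 602 and 517 with CDO1. The groups overlapped throughout, and the log2 fold change was -0.08 ± 0.09 (SE), from 432 or more reads in every library. CHST15 (ENSG00000182022, chromosome 10, 124007666 to 124093607) adds a second sulfate at carbon 6 to a sugar that already has one at carbon 4, which gives the doubly sulfated E unit of chondroitin. It measured 444.5, 444 and 449 in mock, the tightest group of any member (coefficient of variation 0.652%), and 216, 162 and 186 with CDO1. The highest CDO1 library was below the lowest mock library by more than the range within either group, and the log2 fold change was -1.25 ± 0.10 (SE). The groups did not overlap, with CDO1 lower, for the 7 genes that fell, as for 18.9% of all genes tested (37.1% did not overlap in either direction).

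**Figure D2:**
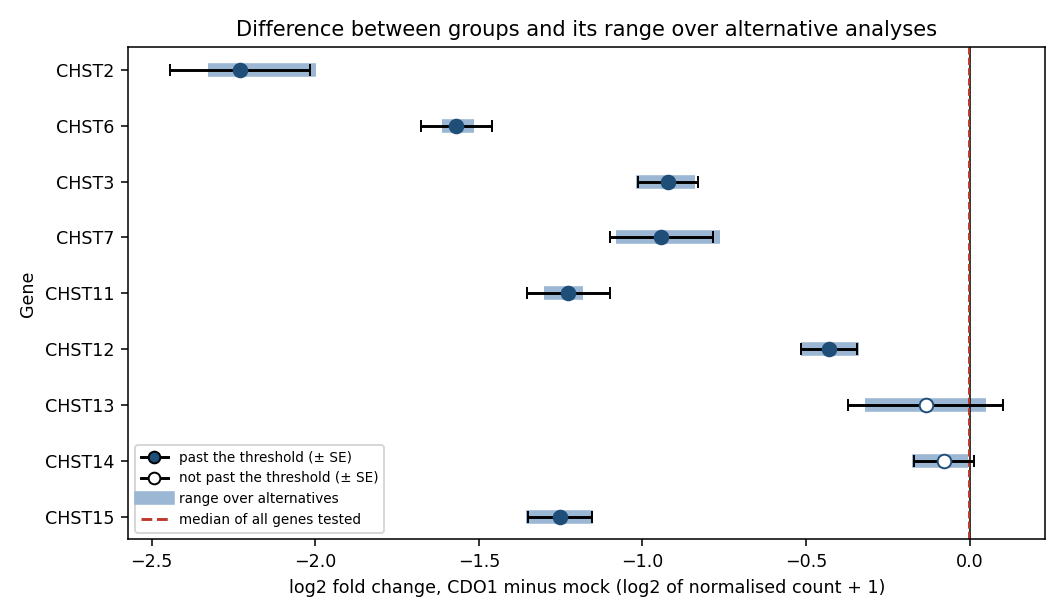
Difference between group means (CDO1 less mock, in log2 units) for each CHST gene with its SE, filled where past the threshold, over a bar from the lowest to the highest value of 17 alternative analyses (the authors' deposited values, which are shrunk and nearer 0, are not drawn); the dashed line is the median of all genes tested. CHST2 lies lowest at -2.23, and of the 9 bars only that of CHST13 crosses 0.

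Start sites of some members that fell were set beside that of CHST14, which did not pass, to show the sequence in front of 1 gene of each reaction. RefSeq (GRCh38.p14) gave a window of 250 bases before to 50 after each start for all 9 genes, 11 windows in all because CHST3 has 3 starts. Printed below are the bases before the start that lie outside any annotated exon, for CHST6, CHST7, CHST11, CHST15 and CHST14, each 5′ to 3′ on the gene's strand. Capitals mark the GC box, GGGCGG on either strand, the site of SP and KLF factors.
CHST6, chr16:75495446-75495691, minus strand: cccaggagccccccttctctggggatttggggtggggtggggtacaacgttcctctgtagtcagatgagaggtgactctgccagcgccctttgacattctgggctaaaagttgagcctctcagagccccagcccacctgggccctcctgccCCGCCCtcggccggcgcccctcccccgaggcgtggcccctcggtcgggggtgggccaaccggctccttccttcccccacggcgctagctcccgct
CHST7, chrX:46573515-46573764, plus strand: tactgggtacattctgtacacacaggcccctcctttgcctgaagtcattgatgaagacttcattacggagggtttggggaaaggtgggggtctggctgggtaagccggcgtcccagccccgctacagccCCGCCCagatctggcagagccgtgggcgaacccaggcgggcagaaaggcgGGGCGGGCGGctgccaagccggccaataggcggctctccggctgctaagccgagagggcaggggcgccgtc
CHST11, chr12:104456698-104456915, plus strand: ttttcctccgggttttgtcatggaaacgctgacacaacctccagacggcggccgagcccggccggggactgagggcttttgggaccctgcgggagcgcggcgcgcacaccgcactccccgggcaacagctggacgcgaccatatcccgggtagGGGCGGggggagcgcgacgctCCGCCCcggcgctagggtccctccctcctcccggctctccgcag
CHST15, chr10:124093608-124093848, minus strand: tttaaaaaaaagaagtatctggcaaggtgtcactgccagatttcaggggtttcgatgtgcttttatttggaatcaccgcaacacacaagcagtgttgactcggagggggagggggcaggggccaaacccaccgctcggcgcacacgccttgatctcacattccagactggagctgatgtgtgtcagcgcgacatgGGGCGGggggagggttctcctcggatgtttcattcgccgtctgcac
CHST14, chr15:40470734-40470983, plus strand: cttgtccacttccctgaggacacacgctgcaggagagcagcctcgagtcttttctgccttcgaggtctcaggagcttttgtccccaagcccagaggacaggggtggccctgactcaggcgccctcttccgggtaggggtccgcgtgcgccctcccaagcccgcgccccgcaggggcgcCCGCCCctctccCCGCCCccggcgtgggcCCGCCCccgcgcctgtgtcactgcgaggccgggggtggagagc
The stretch of CHST11 lies within an intron of a longer annotated transcript, and the window of CHST2 lies inside an exon and is not printed. Stretches of CHST3, CHST12 and CHST13 are not printed either. A GC box was found in 10 of the 11 windows and in 45.0% of 35116 windows of the same length over all genes. The CCAAT box (CCAAT, either strand), found in 34.6% of all windows, was in 2, those of CHST7 and CHST13, and the TATA box (TATAAA, either strand; 11.5%) was in none. A loose AP-1 pattern (TGANTCA, any base in the middle) was in 2, against 7.71% of all windows. The window of CHST14 held it as TGACTCA and that of the third start of CHST3 as TGATTCA. Of the 11 windows, 10 had a GC content above the median of all windows (58.7%), with a range of 56.7% to 79.3%. GC boxes stood before genes that fell and before those that did not pass. The CHST12 window held 7, that of CHST14 5 (3 in the stretch printed), and those of CHST7 and CHST13 3 each. Windows of CHST2 and CHST11 held 2 each, those of CHST6 and CHST15 1 each, and the 3 of CHST3 held 1, 2 and 0. Which start KM12 cells use was not measured.

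GC content moves with the difference between groups in these libraries, with a Spearman's rho of -0.23 over 10926 genes of mean at least 100 (across genes, which are not independent replicates). The members' longest transcripts had 47.9% to 68.4% GC, and 8 of 9 were above the median of protein-coding genes tested (49.4%). After removal of the GC trend 7 members were again lower, CHST2 at -2.19, CHST6 at -1.59, CHST15 at -1.28, CHST11 at -1.27, CHST3 at -0.89, CHST7 at -0.84 and CHST12 at -0.43. The part of GC content in the differences was not tested further.

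Levels of different genes were compared per kilobase of annotated exon, and the classes of reaction then differed in what remained. Summed over its members only, 6-sulfation of N-acetylglucosamine (CHST2 and CHST6) had 49.3 ± 1.56 normalised counts per kilobase in mock and 14.2 ± 0.766 with CDO1 (SD, n = 3). Sulfation of chondroitin at carbon 6 (CHST3 and CHST7) had 141 ± 12.4 and 74.1 ± 3.93, and at carbon 4 (CHST11, CHST12 and CHST13) 76.8 ± 7.65 and 51.7 ± 3.47. The E unit enzyme CHST15 had 68.0 ± 0.443 and 28.7 ± 4.12, and CHST14 had 157 ± 18.4 and 149 ± 17.7. The 9 genes together had 493 ± 38.7 per kilobase in mock and 318 ± 6.50 with CDO1, and CHST14 made up 31.9% ± 1.36 of that sum in mock and 46.8% ± 4.59 with CDO1. These sums, the share of CHST14 and the order of the classes rest on the gene lengths used. Per kilobase of coding sequence the carbon 4 class of chondroitin was above the carbon 6 class in both groups, and shares were not computed.

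The ratio of the carbon 4 to the carbon 6 class of chondroitin was 0.540, 0.552 and 0.539 in mock and 0.683, 0.678 and 0.731 with CDO1. Every CDO1 library was above every mock library, with means of 0.544 ± 0.0074 and 0.697 ± 0.029 (SD, n = 3); the members were chosen with these values known, so no test is given. The size of the ratio rests on the gene lengths used, since CHST12 has an annotated transcript with a very long last exon. Per kilobase of coding sequence the ratio was 1.34 in mock and 1.69 with CDO1. Per kilobase of exon, CHST13, which did not pass and rests on 23 to 43 reads, was 19.3 of the carbon 4 sum of 76.8 in mock. With CDO1 it was 17.4 of 51.7. Per kilobase of coding sequence it was 33.7 and 30.5, beside 407 and 300.3 for CHST12. CHST11 alone fell further (42.5% of mock) than CHST3 and CHST7 (52.9% and 52.1%). The ratio without CHST13 was not computed.

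**Figure D3:**
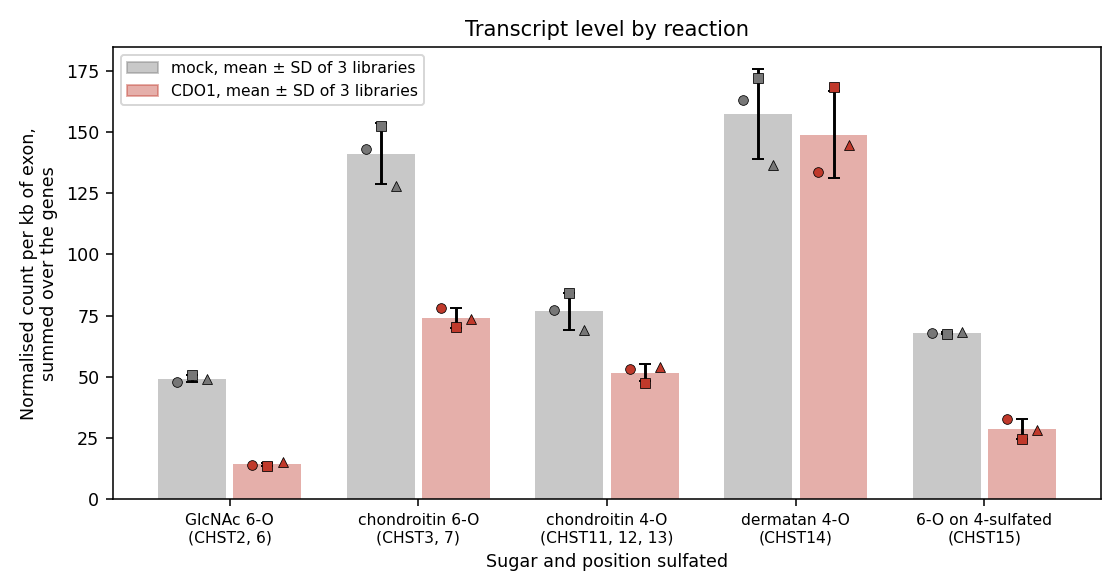
Normalised count per kilobase of annotated exon, summed over the genes of each reaction; bars are means of 3 libraries (grey mock, red CDO1), error bars 1 SD, points single libraries. The sum for CHST2 and CHST6 goes from 49.3 to 14.2, while CHST14 stays between 134 and 172 in all 6 libraries. The order of the reactions rests on the length used.

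In order of level per kilobase of exon, mock libraries had CHST14 first (157), then CHST7, CHST3 and CHST15 at 72.1, 69.0 and 68.0, whose neighbours' ranges overlapped. CHST6 and CHST12 followed at 31.8 and 31.3, also overlapping, then CHST11 at 26.2, and last CHST13 and CHST2 at 19.3 and 17.5, which overlapped. With CDO1 the first 4 kept their order, at 149, 37.6, 36.5 and 28.7, with ranges that overlapped from CHST7 to CHST15. CHST12 (23.1) and CHST13 (17.4) then stood above CHST11 (11.1) and CHST6 (10.6), and CHST2 was last at 3.59. Per kilobase of coding sequence CHST14 was first and CHST12 second in both groups, at 499 and 407 in mock with overlapping ranges and at 472 and 300.3 with CDO1. CHST7, second per kilobase of exon, was seventh per kilobase of coding sequence in both groups, at 113 in mock and 59.0 with CDO1, so its place rests on the length used.

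CHST2 had the largest difference of the members. The protein-coding genes whose values over the 6 libraries, centred on each gene's mean log2 level, lay nearest to it among 12854 were CACNA1B (distance 0.239), RNF165 (0.240) and MAGEE1 (0.370). CACNA1B, a voltage-gated calcium channel subunit, was at 86.5 ± 6.98 in mock and 20.1 ± 4.66 with CDO1 (SD, n = 3). It was picked for its nearness in these same libraries, so a fall like that of CHST2 follows from the choice.

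Other genes of the same chains were counted from lists chosen with earlier results of these data known. Up to 4 genes of each list were named for having the smallest p. Adjusted p-values printed for listed genes therefore mark only their place in the fit across all genes. Among further sugar sulfotransferases, 8 of 11 were in the table and 6 were tested, of which 2 fell, 1 rose and 3 did not pass. GAL3ST2, which sulfates carbon 3 of galactose, rose from 414 ± 75.3 to 602 ± 9.01 normalised counts (SD, n = 3; adjusted p = 0.00026 in limma). GAL3ST1, the sulfatide enzyme, fell from 13.2 ± 3.02 to 3.06 ± 1.27 (adjusted p = 0.0032 in limma) and GAL3ST4 from 25.9 ± 4.36 to 13.3 ± 3.97 (adjusted p = 0.025 in limma), and edgeR and DESeq2 each called 1 of the list lower. CHST1, which sulfates galactose of keratan, was at 17.2 ± 6.30 and 8.68 ± 2.55 and did not pass (adjusted p = 0.082 in limma). CHST4, the close relative of CHST2 in L-selectin ligands, was at 4.98 ± 1.67 and 1.33 ± 0.564 and did not pass (0.077). UST, which sulfates the uronic acid of chondroitin, was at 454 ± 6.89 and 502 ± 18.4 and did not pass (0.16). The groups did not overlap for any of the 6, UST and GAL3ST2 being higher with CDO1, beside 37.1% of all genes tested in either direction. CHST8, CHST9 and CHST10 were not analysed here.

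Of 14 genes that build the linkage region and the chondroitin chain, 7 fell, none rose and 7 did not pass, with a median log2 fold change of -0.23. At an unadjusted p of 0.05 the list had 1 gene higher in limma and in edgeR and 0 in DESeq2. XYLT1, a xylosyltransferase that starts the chain, fell from 134 ± 2.78 to 59.4 ± 6.31 (log2 fold change -1.17 ± 0.14 (SE)). The other xylosyltransferase of the list, XYLT2, was more abundant and fell less, from 1228 ± 108 to 1041 ± 60.8 (log2 fold change -0.24 ± 0.07 (SE)). The xylose phosphatase PXYLP1 and the glucuronyltransferase B3GAT3, both of the linkage region, fell by 0.62 and 0.47 on the log2 scale. CHPF, a subunit of the chondroitin polymerase and the most abundant of these transcripts before length is allowed for, fell from 12010 ± 1921 to 8592 ± 286 (SD, n = 3). DSE, the epimerase that turns chondroitin into dermatan, was at 949 ± 22.7 and 1042 ± 63.5 and did not pass (adjusted p = 0.14 in limma).

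The backbone that CHST2 and CHST6 modify is built by B3GNT and B4GALT enzymes in turn. Of 8 such genes, 3 fell, 2 rose and 3 did not pass, and DESeq2 called 1 lower and 2 higher. B3GNT7, the N-acetylglucosamine transferase tied to keratan sulfate, stood at 89.6, 126 and 105 in mock and at 32.5, 21.9 and 23.0 with CDO1 (log2 fold change -2.02 ± 0.20 (SE), adjusted p = 1.75e-07 in limma). B3GNT3 and B4GALT1 rose, by 0.58 and 0.40 on the log2 scale.

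Core proteins that can carry these chains gave 5 that fell, 2 that rose and 14 that did not pass of 21 tested. Most of the 14 were scarce. NCAN, SRGN, PRELP, CD74, PTPRZ1, SPOCK1, SPOCK2, SPOCK3, THBD and SV2A had group means of at most 12.5 normalised counts. Besides SDC1 and SDC4, the others were BCAN (187 in mock, 183 with CDO1) and APLP2 (10342 and 10826). CSPG4, a transmembrane chondroitin sulfate proteoglycan, stood at 747, 840 and 610 in mock and 274, 339 and 313 with CDO1 (log2 fold change -1.24 ± 0.10 (SE)). The hyaluronan receptor CD44 fell from 3627 ± 186 to 1969 ± 63.4, the matrix proteoglycan VCAN from 603 ± 26.1 to 367 ± 11.3, and the syndecan SDC3 from 1631 ± 118 to 992 ± 121 (SD, n = 3). NRP1 and TGFBR3, receptors that can bear a chain, rose by 0.36 and 0.32 on the log2 scale. SDC1 and SDC4 had log2 fold changes of -0.06 ± 0.05 and -0.07 ± 0.06 (SE) and did not pass.

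For the supply of the sulfate donor only transcripts were measured, not PAPS or sulfate. Over all genes tested 24.0% differed, 11.3% of them all being higher with CDO1. Of 7 genes of sulfate uptake, PAPS synthesis, PAPS transport and recycling, 1 rose and 6 did not pass, none was lower by limma, edgeR or DESeq2, and none was lower at an unadjusted p of 0.05. PAPSS2, a PAPS synthase, stood at 2646, 2573 and 2626 in mock and 4286, 4300 and 4449 with CDO1 (log2 fold change 0.73 ± 0.05 (SE), adjusted p = 7.46e-10 in limma). Its partner PAPSS1 was at 2032 ± 97.3 and 2020 ± 5.21 (SD, n = 3).

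**Figure D4:**
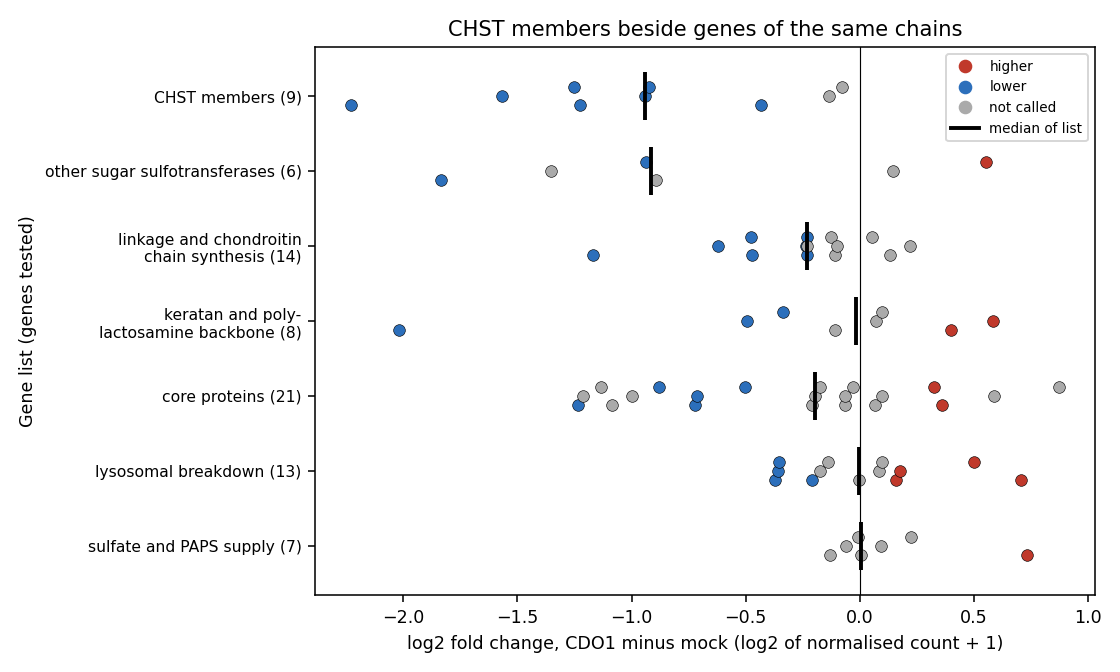
Difference between groups (CDO1 less mock, log2 units) for the genes tested in the CHST family and in 6 related lists, with the number tested in parentheses, red where higher and blue where lower past the threshold, grey for the rest, and a black bar at each median. The median is -0.94 for the 9 CHST genes, -0.23 for linkage and chain synthesis and 0.01 for sulfate and PAPS supply.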

How the data were processed

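RNA-seq of 6 KM12 libraries (3 CDO1, 3 mock) was used. The signal columns are gene counts divided by 1 size factor per library, as deposited by the authors; scaling back to reads made 100% of values whole to within 0.001. The authors' log2 fold change, p-value and adjusted p-value columns are their own comparison, per the file headers. Per the submitters' processing notes, STAR 2.5.1b, DESeq2 1.10.1 and the build GRCh38 were used; for the counter, strand setting and annotation no source is at hand.

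The test was limma 3.58.1 (trend, R 4.3.3) on log2(normalised count + 1) over the 21775 genes whose mean was 1 or more, group as the only term, Benjamini-Hochberg adjusted over all genes. This scale shrinks the differences of low genes. Folds are ratios of mean normalised counts. edgeR 4.0.16 and DESeq2 1.42.0 on the recovered reads, other filters, pseudocounts and scalings, GC correction (lowess, span 0.3), a replicate block and each library left out were alternatives. Fits were also run on simulated counts with independent libraries and the same dispersion for every gene. As these libraries need not have that spread, the simulation does not check the calls made here.

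The members and lists were chosen with earlier results of these data known, and 1 listed marker is not reported here. Genes named were all members, genes overlapping them, up to 4 of each list with the smallest p with any other given with its values, and the 3 genes nearest to the member with the largest change. Names came from a reference table (26577 identifiers matched), positions, lengths and GC from GENCODE release 29 (26742 matched), promoters from RefSeq. Within groups every library pair differed by more than sampling noise (chi-square per degree of freedom 2.10 to 8.29), so none was taken for a repeat deposit of another; this does not show separate cultures.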

Additional observations from a re-analysis of the deposited data

How the results depend on the processing

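Of the 9 members, 7 were lower and 0 higher under every alternative run, which included edgeR, DESeq2, the authors' deposited adjusted p, equal library totals and each library left out. CHST13, which did not pass, had a log2 fold change of 0.051 with the GC trend removed and between -0.32 and 0.0073 with 1 library left out, the highest without CDO1 replicate 2, and the cause was not tested. At an adjusted p of 0.01 the genes higher over the whole table went from 2467 to 1543. The ratio of carbon 4 to carbon 6 enzymes was 0.572 in mock with the longest transcript as length, 1.34 and 1.69 in mock and CDO1 with coding length, and 1.66 and 2.72 with CHST14 in the carbon 4 sum, which by construction adds a gene to one side. The ratio was higher with CDO1 in each of these, and all of them kept CHST13 in the carbon 4 sum. With the replicate number as a block, 2845 genes were higher and 3073 lower, and 7 members lower. Deviations of same-numbered libraries correlated at 0.0777, 0.299 and 0.0862 for numbers 1, 2 and 3. CDO1 replicates 2 and 3 correlated best with the mock library of the same number, and CDO1 replicate 1 with mock replicate 3 (0.189). Whether the numbers pair samples cannot be told from this, and the main fit did not use them. Without 1 library, 1749 to 2607 genes were higher and 2162 to 2885 lower. CHST13 and, with CDO1, CHST2 rest on under 50 and under 20 reads per library, and counting error is largest there among the members.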

Other observations

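Breakdown of the same chains in the lysosome gave no common direction. Of 13 genes tested, 4 rose, 4 fell and 5 did not pass, with a median log2 fold change of -0.0029 and 2 higher and 4 lower by DESeq2. HYAL1, a hyaluronidase that also cuts chondroitin, rose from 57.3 ± 12.2 to 92.9 ± 6.12 normalised counts (SD, n = 3; adjusted p = 0.0036 in limma), and HEXA, a hexosaminidase subunit, from 70.3 ± 5.37 to 100.1 ± 10.7 (adjusted p = 0.016 in limma). GALNS, which removes sulfate from carbon 6 of N-acetylgalactosamine, fell from 559 ± 63.2 to 435 ± 36.3 (adjusted p = 0.0040 in limma). SUMF1, which activates all sulfatases, fell from 442 ± 26.9 to 347 ± 33.8 and its paralog SUMF2 from 2411 ± 65.5 to 2084 ± 54.9. ARSB, which removes sulfate from carbon 4, was at 362 ± 21.5 and 320 ± 2.06 and did not pass (adjusted p = 0.13 in limma). The groups did not overlap for 11 of the 13 genes, in either direction, beside 37.1% of all genes tested. IDUA, the iduronidase of dermatan breakdown, fell by 0.37 on the log2 scale.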
